A study of Mus musculus with 8 samples.

Results

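The genes described here are the immunoglobulin light chain variable (V) genes, the segments that encode most of the antigen-binding part of the kappa and lambda light chains. They were chosen by name, as every row of the deposited expression table whose gene symbol began with Igkv or Iglv, which gave 115 members among 23084 rows. The rule used no measured value. Of the members, 112 were kappa genes of 20 V families (the number after Igkv names the family, a group of V genes with like sequence) and 3 were the lambda genes Iglv1, Iglv2 and Iglv3.

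The study sequenced RNA of myeloid cells sorted by flow cytometry from spleens of C57BL/6 mice aged 6 to 8 weeks, in 4 groups of 2 samples each. Wild-type (wt) mice and mice lacking Lmna, the gene of the nuclear lamina proteins lamin A and lamin C, in myeloid cells (LmnaMyeKO) each gave CD11b+Ly6C+ cells and CD11b+Ly6G+ cells, which the study treats as its monocytic and granulocytic myeloid subsets. The deletion was driven by Cre under the control of the lysozyme M gene, which is active in monocytes, macrophages and neutrophils and not in B cells. A label that lists the sort markers gave CD11b+Ly6C+ for all 8 samples, so the subset was read from the sample titles, and the labels did not say whether the mice carried tumors. The value used for each gene was its mean signal, the authors' mean of read counts divided by library size factors. The counts were estimates, which share out reads between like transcripts. Reads of a gene below therefore means estimated reads in whole numbers. The lowest values of the table were sums of 8 fixed steps, 1 for each library, so that the mean ran over 8 libraries, which is the number of samples in the series, and joined both genotypes and both subsets. Hence no level of wt or LmnaMyeKO cells, no direction and no replicate error can be given from it, and every comparison below is a description of 1 pooled value per gene, with no test. The mean signal of Lmna itself was 79.5, a pooled value that cannot check the genotype labels.

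A light chain gene is built in developing B cells, where the RAG recombinase joins 1 V segment to a joining (J) segment, and the product is spliced to a constant (C) segment. Each B cell clone and its plasma cell progeny transcribe mainly the V segment they have joined, and plasma cells make far more light chain RNA than resting B cells do. Monocytes and neutrophils do not rearrange these loci. In mice most light chains are kappa, and the lambda locus holds few V genes.

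Light chain V transcripts were found throughout the locus in these sorted myeloid samples, and each of the 115 members had reads. The table lists no gene at 0, and its lowest mean signal was 0.185. The members' summed mean signal was 25958, or 0.103% of the summed signal of all genes. The median member had a mean signal of 92.5, against 46.8 for all genes, and 68 of the 115 members lay above the median gene. Mean signal is not divided by length, and the members are short, with a median transcript length of 360 bases. The comparison with all genes is therefore not adjusted for length. A mean signal of at least 1 was reached by 106 members, at least 10 by 83, at least 100 by 54 and at least 1000 by 6. The shares of all genes at these levels were not computed, so the counts describe the members only. The steps of the single libraries set how many reads lay behind these values: 1 read added between 0.0653 and 0.157 to a mean, so that the members together rested on at least 165420 and at most 397262 reads.

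Markers of the sorted subsets and of lymphoid cells were both present in the same pooled means, on the scale of mean signal. All 7 monocyte markers had a row, from Cd14 at 1653 to Lyz2 at 104132, and all 7 neutrophil markers, from Ly6g at 7853 to S100a9 at 725556. Lyz2 is the lysozyme M gene, which is active in neutrophils too, so its value is not particular to monocytes. Nor is that of Itgam on the same list, which encodes CD11b, a sort marker of both subsets. All 8 B cell markers also had a row, from Fcer2a at 2219 to Cd79a, a signalling subunit of the B cell receptor, at 5923. The 8 plasma cell markers ranged from Tnfrsf17, a plasma cell survival receptor, at 24.5 to Jchain, which links secreted IgA and IgM, at 10848, and the 5 T cell markers from 288 for Cd3e to 759 for Cd4. The part of B-lineage cells in the light chain signal was not tested, since 1 pooled value per gene cannot show which libraries the markers moved with.

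The signal was unevenly spread over the members. Igkv1-110 was the highest, with a mean signal of 2276, which was 8.77% of the summed signal and rested on at least 14502 reads. It was followed by Igkv1-117 at 1763, Iglv1 at 1756, Igkv10-96 at 1575, Igkv5-39 at 1073 and Igkv3-2 at 1047. The order of the 4 highest changed when the mean signal was divided by the exonic length: Igkv1-110 had 5677 per kb, Iglv1 4491, Igkv10-96 4388 and Igkv1-117 4364. Igkv1-135 at 879, Igkv19-93 at 769, Igkv4-55 at 723 and Igkv6-23 at 686 completed the 10 highest mean signals. The 5 highest members held 32.5% of the summed signal, the 10 highest 48.3% and the 20 highest 65.8%. It took 11 members to reach 50% and 46 to reach 90%.

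**Figure D1:**
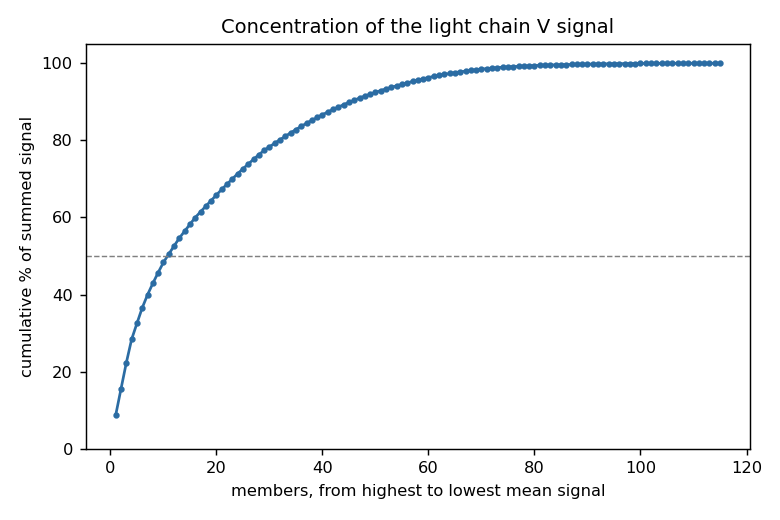
Cumulative share of the summed mean signal (y axis, %) over the 115 members ordered from the highest to the lowest mean signal (x axis), with a dashed line at 50%. The curve crosses the line at the 11 highest members and is flat over the last ones, since the 32 members under a mean signal of 10 add little.

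The end of a V segment is where the J segment is joined, and it is shown here because it holds the germline start of the third complementarity-determining region, the most variable loop of the chain. The sequences below are those of the 10 highest members, from the sense strand of the GENCODE M21 transcripts (mm10), 5′ to 3′, up to the last base of the V segment. The capitals mark the last cysteine codon, which encodes the conserved cysteine of the V domain.
Igkv1-110: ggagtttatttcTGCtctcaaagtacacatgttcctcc
Igkv1-117: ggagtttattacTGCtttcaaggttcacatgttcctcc
Iglv1: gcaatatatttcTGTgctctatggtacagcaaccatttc
Igkv10-96: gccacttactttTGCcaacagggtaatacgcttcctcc
Igkv5-39: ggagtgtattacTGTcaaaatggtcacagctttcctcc
Igkv3-2: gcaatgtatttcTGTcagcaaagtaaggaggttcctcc
Igkv1-135: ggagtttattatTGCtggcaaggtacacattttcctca
Igkv19-93: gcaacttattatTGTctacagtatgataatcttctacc
Igkv4-55: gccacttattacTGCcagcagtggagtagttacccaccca
Igkv6-23: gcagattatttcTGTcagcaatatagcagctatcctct

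Igkv1-110 lay on chr6:68270485-68271267 and Igkv1-117 on chr6:68121046-68121827, both on the plus strand and annotated as V genes. Igkv10-96 lay on the minus strand at chr6:68631963-68632442. Iglv1 lay on the minus strand of chromosome 16, at chr16:19085017-19085500. The exonic length of the members ran from 200 to 501 bases, with a median transcript length of 360. Of the 103 members annotated as V genes, 102 had a reading frame that ran open from an ATG to the end with a cysteine codon among the last 10 codons. In the other one, Iglv3, the last cysteine counted this way stood 12 codons before the end. Among the 12 pseudogenes, 6 had such a frame. Most members had 7 (75 members) or 8 (28 members) codons after the cysteine.

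The V families differed in how their signal was spread. Igkv1 held the largest share, 19.7% of the summed signal with 10 members, and 44.5% of it came from Igkv1-110 alone. The median Igkv1 member had a mean signal of only 38.1, since the other members ran down to Igkv1-131 at 0.432. Igkv4 was the largest family, with 31 members or 27.0% of all, and held 12.4% of the signal. Igkv4-55, its highest member, had 22.6% of the family's signal. This share depends on the number of members, so it cannot be set directly against that of Igkv1-110. A mean signal of 10 was reached by 21 of the 31 Igkv4 members and by 7 of the 10 Igkv1 members. Igkv3 held 10.1% with 10 members, led by Igkv3-2, and Igkv6 held 9.10% with 9 members, led by Igkv6-23. The median member of Igkv6 stood at 221 and that of Igkv3 at 172, both above the Igkv1 median.

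**Figure D2:**
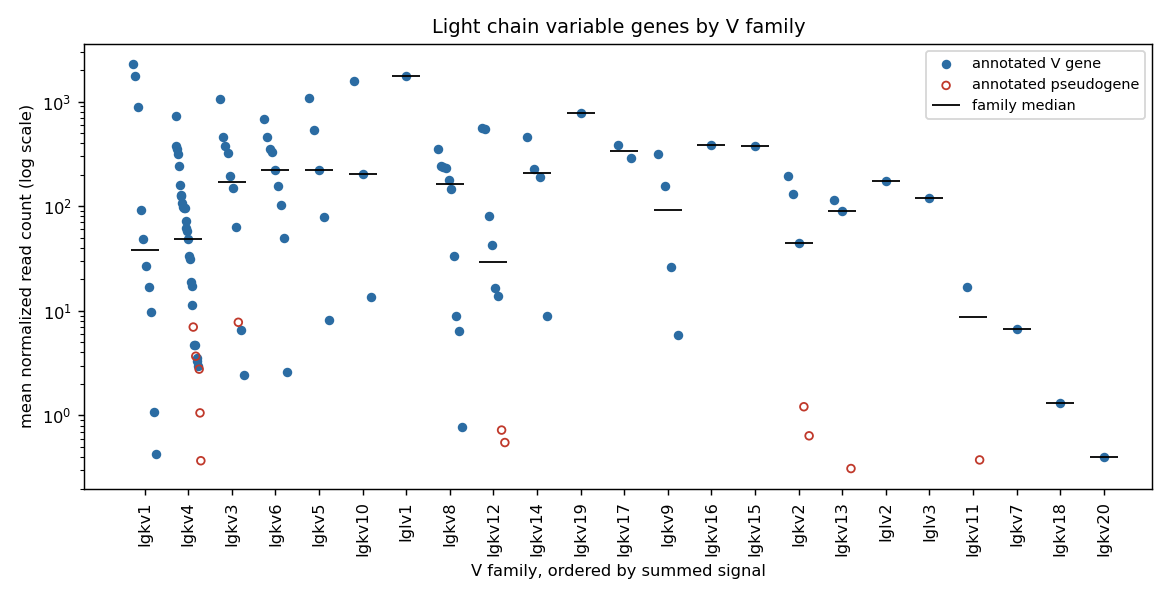
Mean signal (authors' mean normalized read count, log scale) of each member by V family, with families ordered by summed signal, filled points for annotated V genes, open points for annotated pseudogenes and a bar at the family median. All open points sit below 10, and the Igkv1 members run from 0.432 to 2276.

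Among the smaller families, Igkv5 (5 members, led by Igkv5-39) held 7.40% and Igkv10 (3 members) held 6.90%, of which Igkv10-96 had 87.9%. Igkv8 held 5.53% with 10 members and a highest value of 353 in Igkv8-30. Igkv12 held 4.84%, led by Igkv12-44 at 560. Igkv14 held 3.42%, with Igkv14-111 at 461, and Igkv17 held 2.58%, with Igkv17-121 at 382. Igkv9 held 1.93% and was led by Igkv9-120 at 313. The families Igkv19, Igkv16 and Igkv15 each had 1 member, at 769 for Igkv19-93, 385 for Igkv16-104 and 375 for Igkv15-103. Igkv2 was led by Igkv2-137 at 194 and Igkv13 by Igkv13-85 at 114.

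Some families were nearly silent. Igkv11 was led by Igkv11-125 at 17.0. Igkv7-33, the only Igkv7 member, stood at 6.73, Igkv18-36 at 1.3 and Igkv20-101-2 at 0.399. These last ones are annotated as V genes, not as pseudogenes, and Igkv18-36 rested on 10 reads and Igkv20-101-2 on 3. The order of the families by their share was the same per kb of exon and without the pseudogenes. It changed when the highest member of each family was left out. Igkv6 then passed Igkv3, Igkv8 moved up to position 5 and Igkv10 fell from position 6 to position 10. That setting drops every family with 1 member, Iglv1 at position 7 among them. Its order ran over 14 families only, so its positions are not like for like with those of the full order.

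Annotated pseudogenes had low values throughout. The annotation lists 163 light chain V genes by these names, 103 as V genes and 60 as pseudogenes. All 103 V genes had a row in the table, and 12 of the pseudogenes did. These 12 had mean signals between 0.311 and 7.77, with a median of 0.891, and held 0.102% of the members' signal. The 103 V genes had a median of 114, but 20 of them also stood under 10. The highest pseudogene was Igkv3-11, and only 19.0% of its 50-base stretches were found in no other transcript, the lowest share of all members. Members named here and in the accounts of low members, the locus, near copies and shared ends, where they lead no family and are not among the 10 highest, were chosen after their values were seen.

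The mean signals of the 13 members under 1.5 could be split into whole estimated reads per library. Only 1 combination of the 8 library steps gave each value. The libraries carry no label in the table, so their values were not assigned to any group. Igkv13-78-1 had 1 read in each of 3 libraries and none in the other 5, and Igkv1-131 and Igkv20-101-2 also had 1 read in each of 3 libraries. Igkv18-36 had 2, 1, 1, 3 and 3 reads in 5 libraries. In Igkv1-35, 10 of the 13 reads came from the library with the highest size factor, 1.91, while 2 more libraries had 2 reads and 1 read. The other 7 libraries had size factors between 0.796 and 1.05. In Igkv8-26, 4 of the 6 reads came from another library. With 3 to 13 reads over 8 libraries, no order among these members can be read.

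**Figure D3:**
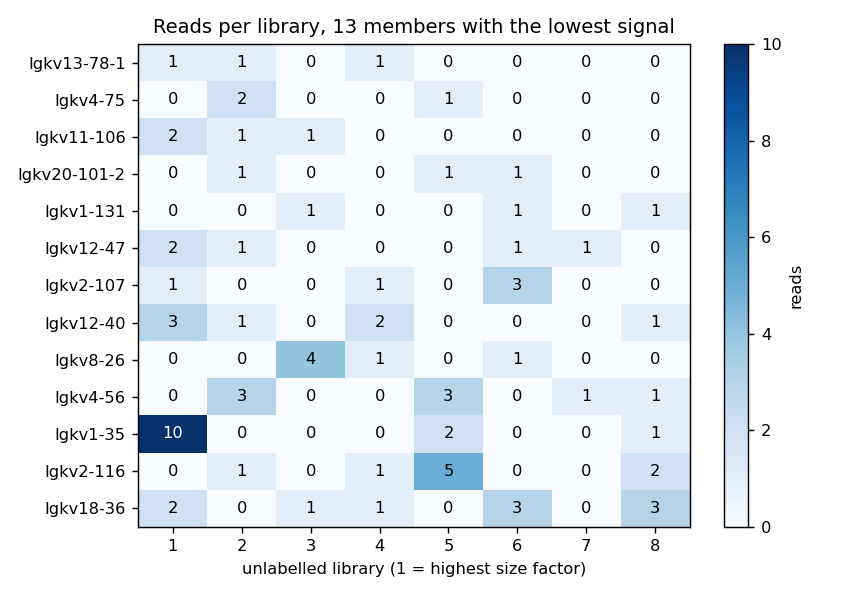
Estimated reads per library (numbers and shade) for the 13 members with the lowest mean signal (rows). The 8 unlabelled libraries (columns) are ordered from the highest to the lowest size factor. Most cells hold 0 to 3 reads, and the darkest cell holds 10 reads of Igkv1-35.

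The kappa V genes lie in a row on chromosome 6, between 67555497 and 70704177, before the J segments, with Igkj1 starting at 70722562. The nearest member was Igkv3-1, 18.4 kb before Igkj1, and the farthest was Igkv2-137, 3166 kb before it. Over the 112 kappa members the Spearman correlation of the mean signal with the distance was -0.07, across genes that share the same libraries. In 4 groups of 28 members each by distance, the median was 186 in the nearest (18.4 to 648 kb), 63.4 and 50.4 in the middle ones and 89.9 in the farthest (2180 to 3166 kb). The farthest group held the largest share, 31.7%, with Igkv1-110, Igkv1-117 and Igkv1-135 in it, and the nearest held 24.7%.

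Kappa V segments point either the same way as Igkc, which are joined by deletion of the DNA between, or the opposite way, which are joined by its inversion. The 43 members in the same orientation had a median mean signal of 89.8 and the 69 in the opposite one 80.4. Without the pseudogenes these medians were 169 over 38 members and 97.8 over 62. The same orientation held 43.8% and the opposite one 48.3% of the members' summed signal. Both ranged from under 1 to over 1000, so their ranges overlapped, but the degree of overlap between the groups was not measured. All Igkv4 members pointed the opposite way and all Igkv3 members the same way, so that family and orientation cannot be told apart for them.

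**Figure D4:**
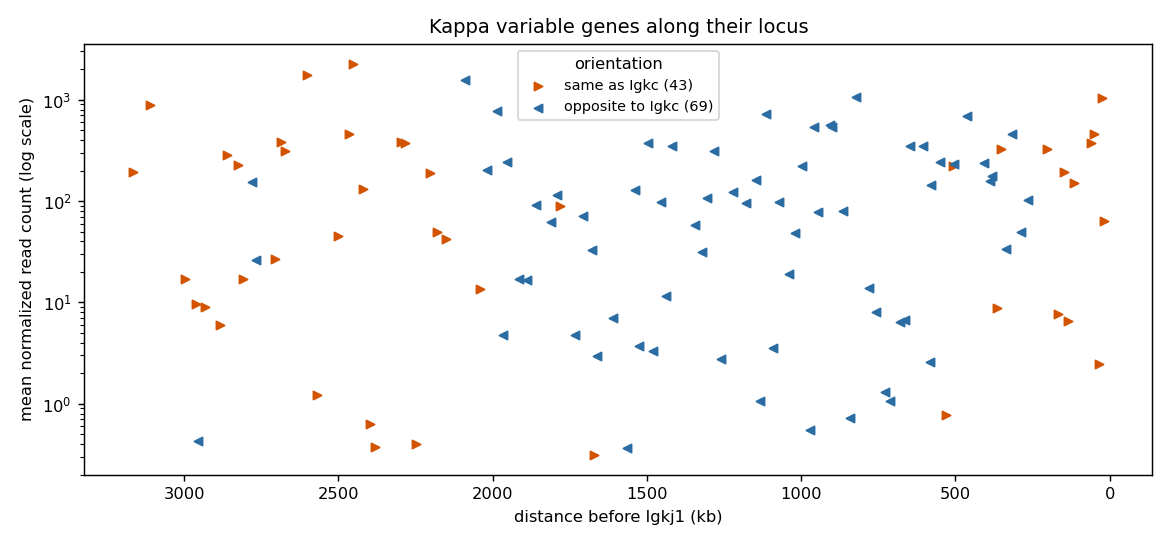
Mean signal (log scale) of the 112 kappa members against their distance before Igkj1 (kb, with the J segments at the right), with arrows coloured by orientation: 43 members in the orientation of Igkc and 69 opposite to it. High and low members stand side by side along the whole locus, and the members opposite to Igkc fill most of its middle.

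The 3 lambda V genes held 7.90% of the summed V signal. Iglv1 had a mean signal of 1756, Iglv2 176 and Iglv3 120. Iglv1 and Iglv2 are close copies that differ at 11 of 351 aligned bases, and Iglv1 stood 9.99 times higher. The first 300 bases of both, counted from the ATG of the reading frame, are given here. The 8 differences within them, in capitals, are among the letters by which reads of the pair can be told apart.
Iglv1: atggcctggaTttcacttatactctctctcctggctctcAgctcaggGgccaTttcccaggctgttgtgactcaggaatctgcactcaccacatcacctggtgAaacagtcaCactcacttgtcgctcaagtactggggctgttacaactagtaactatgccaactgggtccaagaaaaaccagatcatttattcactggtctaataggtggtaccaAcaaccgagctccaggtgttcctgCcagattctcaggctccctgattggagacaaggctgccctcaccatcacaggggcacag
Iglv2: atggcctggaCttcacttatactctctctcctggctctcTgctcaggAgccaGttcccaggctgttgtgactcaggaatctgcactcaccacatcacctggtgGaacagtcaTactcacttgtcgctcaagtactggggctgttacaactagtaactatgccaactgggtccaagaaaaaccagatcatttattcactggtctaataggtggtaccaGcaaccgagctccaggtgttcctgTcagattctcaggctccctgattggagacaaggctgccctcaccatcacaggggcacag

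The constant genes gave a separate reading of both chains. Igkc, the kappa constant gene, had a mean signal of 40712, and Iglc1, Iglc2 and Iglc3 of the lambda locus had 1353, 1888 and 752. Lambda was 8.93% of the summed constant signal, against 7.90% of the V signal. Per kb of exon, Igkc had 76527 and all kappa V members together 63832, a ratio of 1.2. Lambda constants together had 7730 per kb and lambda V members together 5286, a ratio of 1.46. Among the constants, Iglc2 had 3085 per kb, Iglc1 2980 and Iglc3 1664. Of the V members, Iglv1 had 4491 per kb, Iglv2 480 and Iglv3 315. Such sums do not show which V member was joined to which constant. None of the 8 J segments on the list had a row, which gives no measure of their use.

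The other genes of the pathway on the list all had a row, and their mean signals follow. Rag1 and Rag2, the recombinase, stood at 307 and 26.3, and Dntt, which adds bases at the joints, at 124. Vpreb1, Vpreb2 and Igll1, parts of the surrogate light chain of precursor B cells, stood at 52.6, 4.43 and 83.3, and Vpreb3 at 249. Pou2f1, Pou2f2 and their coactivator Pou2af1, which act at the octamer of immunoglobulin promoters, stood at 1238, 2587 and 2280. Of the heavy chain constant genes, all 7 on the list had a row, from Ighg1 at 764 to Ighm at 64122, with Igha at 18957, Ighg2c at 11340, Ighg2b at 9612, Ighd at 6060 and Ighg3 at 1365.

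Many members are near copies of each other. The closest other light chain V transcript was at least 95% identical for 55 members, and for 106 of the 113 with a closest gene it belonged to the same family. Of their 50-base stretches, 26 members shared none with any other transcript, and 20 members had no more than 50% unshared. For these 20, including Igkv1-110 at 49.1%, the split of reads between near copies rests on the authors' estimation step and is uncertain. Igkv8-16, at 33.7, shared most of its stretches with Gm43218, a V gene outside the name rule with a mean signal of 4.03. Over the members, the Spearman correlation of the mean signal was -0.20 with the unshared share (115 members) and 0.19 with the identity to the closest gene (113 members).

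**Figure D5:**
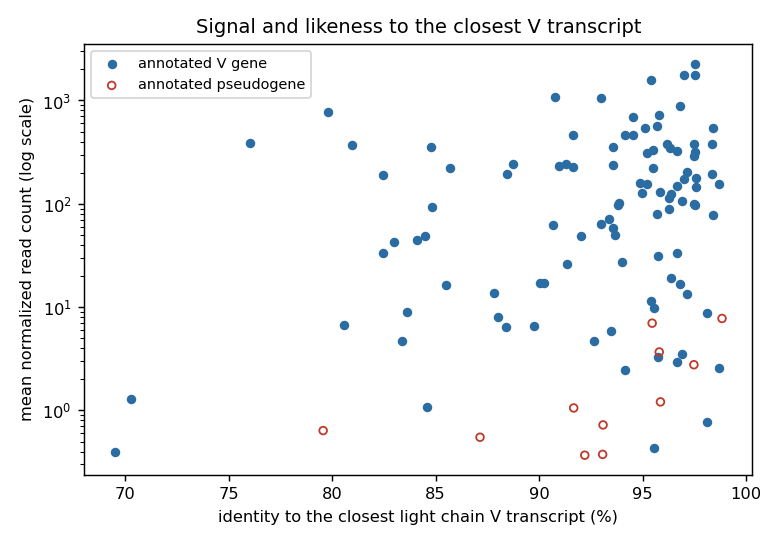
Mean signal (log scale) of 113 members against the identity to the closest other light chain V transcript (%), with filled points for annotated V genes and open points for pseudogenes. Members at 95% identity or more range from under 1 to over 1000.

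Close copies stood near each other in level in some pairs and far apart in others. Igkv1-110 and Igkv1-117 differ at 10 of 359 bases and stood within a ratio of 1.29. Igkv4-72 and Igkv4-68, with 15 differing bases of 352, had a ratio of 1.08, and Igkv17-121 and Igkv17-127, with 9 of 353, one of 1.33. Igkv6-23 and Igkv6-15 had a ratio of 1.48. Igkv1-135 at 879 stood 52.1 times above Igkv1-133 at 16.9, from which it differs at 12 of 362 bases. Igkv3-4 at 458 and Igkv3-3 at 2.46 differ at 21 of 359 bases. Igkv5-43 at 540 stood 6.88 times above Igkv5-45 at 78.4, with 5 differing bases of 347. Igkv6-20 at 157 and Igkv6-29 at 2.60 differ at 5 of 374 bases, and the reads assigned to them numbered at least 1000 and at most 39. These last pairs are among the members whose read split is uncertain: 48.8% of the 50-base stretches of Igkv5-43, 49.1% of those of Igkv5-45 and 35.9% of those of both Igkv6-20 and Igkv6-29 were unshared. The pairs near in level depend on that split too. Igkv1-110 had 49.1% and Igkv17-127 49.4% of stretches unshared, with Igkv1-117 at 50.1% and Igkv4-68 at 51.3%. Counted from 1 at the ATG of the reading frame, with the base of Igkv6-20 first, its differences from Igkv6-29 were A253C, C264T, G319C, A358G and C371T. The first 300 bases of this pair from that ATG show how little sequence separates them, with the 2 differing bases within this stretch in capitals.
Igkv6-20: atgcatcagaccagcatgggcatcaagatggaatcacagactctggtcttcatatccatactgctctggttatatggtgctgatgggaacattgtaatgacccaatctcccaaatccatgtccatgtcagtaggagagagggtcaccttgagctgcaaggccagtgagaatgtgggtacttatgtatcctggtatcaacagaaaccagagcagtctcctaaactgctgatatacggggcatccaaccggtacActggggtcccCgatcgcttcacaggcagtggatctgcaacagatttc
Igkv6-29: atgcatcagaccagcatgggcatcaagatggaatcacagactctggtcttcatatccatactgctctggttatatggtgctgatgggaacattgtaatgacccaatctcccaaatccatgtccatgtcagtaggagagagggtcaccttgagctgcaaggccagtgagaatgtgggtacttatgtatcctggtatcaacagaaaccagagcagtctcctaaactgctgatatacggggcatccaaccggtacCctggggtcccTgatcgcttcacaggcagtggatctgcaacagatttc

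Some members end in the same letters. In 7 groups, members shared the whole stretch from 12 bases before the last cysteine codon to the end. The largest group held Igkv4-72, Igkv4-68, Igkv4-59, Igkv4-71 and the pseudogene Igkv4-73, with mean signals from 3.30 to 377 on the following end.
Igkv4-72: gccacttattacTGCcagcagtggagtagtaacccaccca
Igkv3-4 at 458 and Igkv3-5 at 377 shared an end, as did Igkv5-43 and Igkv5-45 and, at 114 and 89.8, Igkv13-85 and Igkv13-84. Igkv10-94 at 204 and Igkv10-95 at 13.5 also shared theirs, so that members with 1 germline end could lie close together or far apart in level.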

How the data were processed

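RNA of 8 samples was sequenced, and 1 table of 23084 genes was analysed. Per the labels and the study's methods, the authors used cutadapt 1.14 for trimming, STAR 2.5.2b for alignment to mm10, RSEM 1.3.0 with GENCODE M12 for estimated counts and DESeq2 1.20.0 for comparing groups. The deposited signal is the authors' mean of counts divided by size factors. The other columns hold fold changes, their errors, test statistics and p-values of the authors' own comparison and were not used, so the planned edgeR test was not run.

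From the signal, family sums, shares and medians, signal per kb of exon (GENCODE M21) and, with blastn 2.17.0, closest transcripts over at least 250 bases were computed in Python 3.11.15. Low values were split into library steps, a method that recovered 5 of 5 simulated sets of 8 libraries. Total reads per library are not known from the table. The genes named were the highest of each family, the 10 highest, all lambda members and the listed markers and pathway genes. Other members named were chosen after their values were seen. Members and lists were chosen with earlier results of these data known.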

Additional observations from a re-analysis of the deposited data

How the results depend on the processing

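With signal divided by exonic length, the share of Igkv1 was 18.5%, against 19.7% as reported. With the highest member of each family left out, families with 1 member dropped out, and shares were taken of the remaining signal. Igkv1 then held 22.5%, Igkv4 19.7% (12.4% as reported) and Igkv3 12.6% (10.1% as reported). The other settings moved these shares by less than the 95% intervals used to judge a shift. Leaving out the highest members also took Igkv10 from 6.90% to 1.72%, Igkv8 from 5.53% to 8.60%, Igkv6 from 9.10% to 13.3% and Igkv11 from 0.0668% to 0.00298%. Of 68 values of the other 20 families, 57 stayed within such intervals. Most of the 11 that did not came from leaving out the highest members. The intervals cover no error beyond counting, and they were wider than the at least 165420 reads behind the members would give. A shift such as that of Igkv6 to 9.35% per kb lay within them, so fewer than 57 would stay within intervals drawn from the reads. The median of members in the orientation of Igkc was 169 without pseudogenes and 259 per kb, and that of the opposite orientation 97.8 and 232. Members counted numbered 115 with no minimum and 83 at a minimum of 10. No paired analysis was possible because only 1 pooled mean is given per gene, without values of single samples. For the same reason the alternatives of the genotype comparison, leaving out replicates included, were not run. Those on promoter motifs were not run either, as no promoter of a member was used here.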
